A study of Mus musculus with 7 samples.

Results

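The mammalian circadian clock is a transcriptional loop, and its genes were examined here for the nuclear receptor HNF4a in mouse liver. Of the 39704 HNF4a regions in the deposited table, 49 were assigned to the 10 core clock genes Arntl, Clock, Per1, Per2, Per3, Cry1, Cry2, Nr1d1, Nr1d2 and Dbp. They were taken by the gene name that the table gives each region, at any distance and with any annotation, and every member had at least 1 region. A gene name is thus the gene that the table assigns, which can differ from the gene in which a region lies. Chromatin immunoprecipitation with sequencing (ChIP-seq, antibody ab41898) was done on livers of mice whose AMP-activated protein kinase was constitutively active (labelled AMPKCA, here AMPK-CA, 3 libraries) and on livers of wild-type mice (WT, 3 libraries). All mice of both groups ate a high-fat diet that contained doxycycline, for 14 days. There were 3 labelled batches, and AMPK-CA and WT had 1 library in each of them. The promoter that drives the active kinase, the cells that express it, the age and sex of the mice and the hour of tissue collection are not given in the sources used here. Pooled input was not analysed here.

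CLOCK and BMAL1 (the product of Arntl) pair to activate genes through E-boxes, among them Per and Cry, whose proteins then inhibit that pair. The REV-ERB receptors encoded by Nr1d1 and Nr1d2 repress Arntl through receptor response elements, and DBP, a rhythmic output of the loop, activates genes through D-boxes. HNF4a is a receptor on which the hepatocyte's gene programme depends, and AMPK is the kinase that senses low cellular energy and is known to phosphorylate CRY1 and so promote its degradation.

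A value below is the authors' normalized number of reads in a region, not divided by length unless stated. Reads in regions numbered 692813 to 1207609 in the AMPK-CA libraries and 536027 to 1622087 in the WT libraries. WT replicate 1 stood apart: 19.4% of its reads lay at promoters, against 14.2% in AMPK-CA replicate 1, of the same batch, and 11.7% to 13.4% in the other 4 libraries. Across regions, its log2 values had r = 0.43 with WT replicate 2, r = 0.55 with WT replicate 3 and r = 0.74 with AMPK-CA replicate 1. All 7 hepatocyte marker genes looked up had HNF4a regions, the strongest of them at Apoc3, as did 3 of 4 cholangiocyte, 4 of 4 endothelial, 1 of 4 stellate cell and 0 of 4 Kupffer cell markers. A region at a gene is binding signal in the whole liver and not the gene's expression, and a lower signal per cell cannot be told apart from fewer cells that carry it.

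Promoter windows of Per3, Cry1, Arntl, Clock and Dbp are shown because the deposited regions cover them, Dbp in part, and because the signal there was lower in AMPK-CA than in WT within every batch, as described below. For Arntl 1 of 2 windows and for Clock 1 of 3 is shown. They come from RefSeq (GRCm38.p6, the assembly that mm10 also names) and run from 250 bases before to 50 bases after a start site, 5′ to 3′ on the gene's strand. Capitals mark the D-box TTANGTAA, the E-box CACGTG, the related CACGTT and the receptor site AGGTCA, each on either strand.
Per3 (chr4:151044616-151044915, minus strand): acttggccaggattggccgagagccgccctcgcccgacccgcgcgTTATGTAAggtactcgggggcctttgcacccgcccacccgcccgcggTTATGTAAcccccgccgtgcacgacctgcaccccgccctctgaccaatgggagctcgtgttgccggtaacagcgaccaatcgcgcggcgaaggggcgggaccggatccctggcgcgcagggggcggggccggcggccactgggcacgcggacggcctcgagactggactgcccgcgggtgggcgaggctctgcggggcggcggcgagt
Cry1 (chr10:85185005-85185304, minus strand): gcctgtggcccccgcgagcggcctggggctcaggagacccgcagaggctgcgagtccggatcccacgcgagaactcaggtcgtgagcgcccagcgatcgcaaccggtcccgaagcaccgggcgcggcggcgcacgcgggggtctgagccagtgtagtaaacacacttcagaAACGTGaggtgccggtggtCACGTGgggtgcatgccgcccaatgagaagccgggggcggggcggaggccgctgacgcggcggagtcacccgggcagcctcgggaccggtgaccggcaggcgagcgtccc
Arntl (chr7:113207261-113207560, plus strand): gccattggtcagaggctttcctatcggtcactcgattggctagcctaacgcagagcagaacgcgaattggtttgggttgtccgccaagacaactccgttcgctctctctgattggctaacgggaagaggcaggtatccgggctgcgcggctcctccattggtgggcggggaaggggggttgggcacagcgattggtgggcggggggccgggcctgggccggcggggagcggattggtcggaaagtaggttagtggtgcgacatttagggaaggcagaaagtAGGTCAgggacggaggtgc
Clock (chr5:76304743-76305042, minus strand): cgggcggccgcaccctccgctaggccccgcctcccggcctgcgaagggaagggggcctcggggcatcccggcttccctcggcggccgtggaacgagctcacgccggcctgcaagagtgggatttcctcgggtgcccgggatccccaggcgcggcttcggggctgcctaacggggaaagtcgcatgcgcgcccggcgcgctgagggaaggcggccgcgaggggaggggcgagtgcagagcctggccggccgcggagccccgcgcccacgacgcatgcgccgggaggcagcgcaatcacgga
Dbp (chr7:45704997-45705296, plus strand): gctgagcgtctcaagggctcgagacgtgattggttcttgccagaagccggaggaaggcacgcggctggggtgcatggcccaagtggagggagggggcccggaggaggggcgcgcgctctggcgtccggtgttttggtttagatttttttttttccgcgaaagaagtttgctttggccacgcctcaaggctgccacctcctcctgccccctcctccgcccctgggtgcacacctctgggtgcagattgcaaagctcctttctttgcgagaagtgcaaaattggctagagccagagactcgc

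RefSeq had 13 windows for 9 of the 10 genes, all but Per2. The Per3 window held 2 D-boxes, at positions 46 and 93 counted from its 5′ end, with the start site at position 251, where 2.32% of all 32851 mouse promoter windows held any. The Cry1 window held CACGTT at position 172 and CACGTG at position 191, letters found in 4.68% and 7.15% of all windows. The second of the Arntl start sites had AGGTCA at position 282, as 16.3% of all windows did somewhere, and the Clock and Dbp windows shown held none of these letters. The letters CAAAGTCCA and CAAAGGTCA, cores of HNF4a and related receptor sites, were in 0 of the 13 clock windows, and in 0.475% and 0.478% of all windows. Windows that overlap an HNF4a region of the table held them in 0.767% and 0.639%. GGGCGG, the GC box, was in 11 of the 13 clock windows, in 67.1% of all windows that overlap an HNF4a region and in 35.7% of all windows. The HNF4a regions covered all 300 bases of the Per3, Cry1, Arntl and Clock windows and 257 bases of the Dbp window, so that windows with and without the capital letters lay in HNF4a regions. A match describes letters and does not show a bound site.

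The clock genes carried a median of 4 regions each, where the median over all genes in the table was 2. Cry2 had 11 and Per2 had 10, numbers reached by 2.81% and 3.77% of the 13644 genes, whereas Per1 and Per3 had 1 each. By annotation 7 of the 49 regions were promoters, 25 intronic, 11 intergenic, 3 exonic and 3 at the end of a gene. A clock region had a median of 22.1 normalized reads over the 6 libraries, against 17.4 for all regions. On the scale of normalized reads per kb the medians were 34.5 and 33.3.

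The strongest region of a gene was taken by mean value, not divided by length. By the normalized reads per kb of that region, Per2 stood highest among the members, at 104 ± 17.0 in AMPK-CA and 111 ± 22.5 in WT (mean ± SD, n = 3 each). Cry2 followed at 120 ± 27.4 in AMPK-CA and 70.4 ± 43.5 in WT, then Dbp at 78.7 ± 21.8 and 82.6 ± 9.65. The members were ordered by the mean of all 6 libraries, and these 3 neighbours differed by less than the larger of their SDs over the 6 libraries. Dbp and the next gene, Cry1, differed by 28.3 reads per kb, more than the larger SD of 15.2. Below Cry1, at 50.2 ± 9.49 in AMPK-CA and 54.5 ± 20.5 in WT, the remaining genes followed in the order Clock, Nr1d1, Per3, Nr1d2, Arntl and Per1, down to 33.8 ± 2.03 in AMPK-CA and 31.7 ± 18.6 in WT at Per1. From Cry1 on, no neighbours differed by more than the larger of their SDs. Some genes had a shorter region with more reads per kb, over the 6 libraries, than the region ranked here. These reached 54.9 against 52.3 at Cry1, 52.9 against 34.3 at Arntl and 50.9 against 35.5 at Nr1d2. The order below Dbp therefore depends on how the region was chosen.

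No clock region passed the test between genotypes. Limma, fitted over all 39704 regions with a Benjamini-Hochberg adjusted p under 0.05, called 0 of the 49, beside 0.0% of all regions. With labelled batch as a block it also called 0 of the 49, beside 0.0579% of all regions, and edgeR called 0 without and with the block. The smallest blocked adjusted p among the 49 was 0.315 by limma. At an unadjusted limma p under 0.05 there were 2 lower and 1 higher without the block, beside 0.995% lower and 1.46% higher of all regions, and 4 lower and 3 higher with the block, beside 3.16% lower and 4.11% higher. EdgeR gave such a p to 3 of the 49 without the block, beside 2.09% of all regions, and to 6 with it, beside 6.54%. The log2 fold change, AMPK-CA over WT on the log2(value + 1.80) scale, which understates changes of weak regions, was negative in 26 of the 49, beside 49.4% of all regions, and positive in 23, beside 50.6%. Its median over the 49 was -0.08, where that of all regions was 0.01. Without WT replicate 1 the median over the 49 was -0.0076, and without batch 1, with the block, 0.0073. In all 3 batches 12 of the 49 were lower and 8 higher in AMPK-CA, beside 14.6% and 13.5% of all regions. The groups did not overlap in 6 that were lower and 1 that was higher, beside 3.27% and 4.64%.

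**Figure D1:**
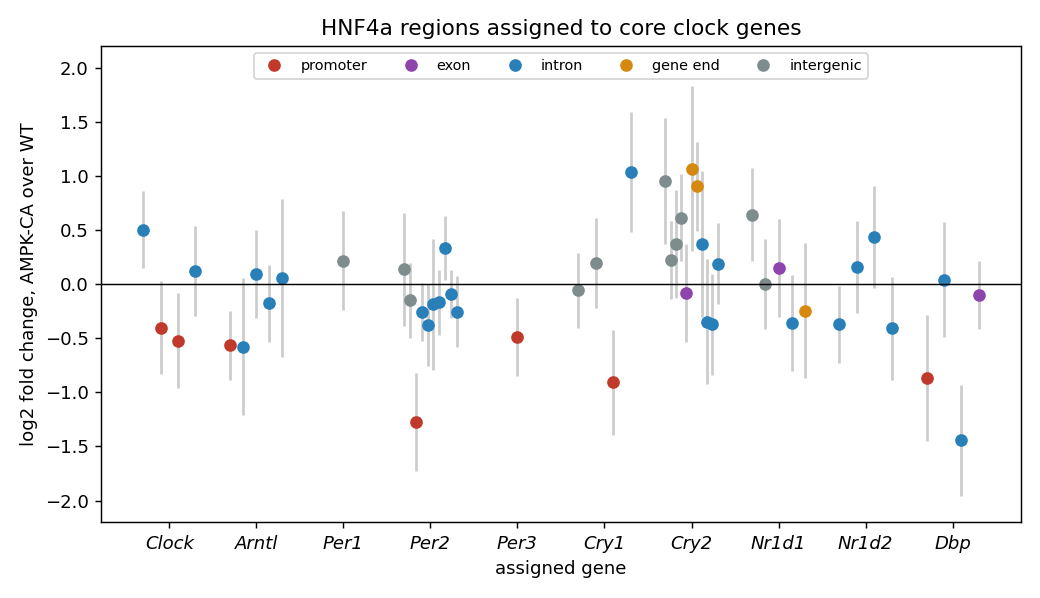
Log2 fold change (AMPK-CA over WT) of each of the 49 HNF4a regions assigned to a clock gene, from limma without the batch block, with bars of 1 standard error; within a gene, regions run from upstream to downstream and the colour gives the annotation. The 7 promoter regions all lie below 0, the lowest at -1.28 at Per2, and 8 of the 11 Cry2 regions lie above 0, beside 50.6% of all regions.

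The regions that the table annotates as promoters of clock genes all had lower mean log2 values in AMPK-CA. They were 7 in number, 2 at Clock and 1 each at Per2, Per3, Cry1, Dbp and Arntl, and their median log2 fold change was -0.57. The 2 Clock regions nearly adjoin, so the 7 are not independent. Counting the promoter regions apart was not part of the analysis plan, so the shares set beside these counts are descriptions only. Of all 5235 promoter regions 73.9% were negative, and the median was -0.23. In each of the 7 the signal was lower in AMPK-CA within all 3 batches, beside 25.3% of all promoter regions, and in 5 of the 7 the groups did not overlap, beside 5.2%. An unadjusted limma p under 0.05 was given to 1 of the 7 without the block, beside 2.12% of promoter regions lower at that p, and to 3 with it, beside 6.95%. Adjusted calls with the block were 0 of the 7, beside 0.0382% of promoter regions. Without batch 1 all 7 were lower in both other batches, which held for 29.9% of all promoter regions, 5 of the 7 did not overlap, beside 18.1%, and the median log2 fold change was -0.54 against -0.07 for all promoter regions. Without WT replicate 1 alone the 7 were again all negative, with a median of -0.40 against 0.0026 for all promoter regions, and 5 did not overlap, beside 7.66%. Leaving out that library brought the log2 fold change to -0.28 at Arntl, -0.28 at Per3, -0.49 at Cry1, -0.63 at Dbp and -1.10 at Per2. It was -0.40 at the Clock promoter region 347 bp downstream of the start site. At the Clock region 557 bp upstream the remaining WT values, 17.2 and 21.6, lay within the AMPK-CA range of 15.5 to 21.7. Its blocked log2 fold change without batch 1 was -0.09. The libraries of batch 1 differed in their promoter share of reads, which was higher in WT replicate 1. All promoter regions had a median log2 difference of -0.60 in batch 1, -0.06 in batch 2 and -0.09 in batch 3, where the 7 clock promoters had -0.98, -0.49 and -0.59. When each library was centred on its median over regions of the same annotation, all 7 were negative, with a median of -0.31, and 4 of the 7 did not overlap, beside 3.65% of all promoter regions on that scale. With the block, an unadjusted limma p under 0.05 was then given to only 1 of the 7, Per2. It was given to 251 of all 5235 promoter regions in either direction. With libraries scaled to equal totals 2 of the 7 did not overlap, beside 4.39%. Cry2, Nr1d1, Nr1d2 and Per1 had no region annotated as a promoter. Taken by distance instead, 11 clock regions lay within 1 kb of a start site, the further 4 being Cry2 exon 1, Nr1d1 exon 1 and intron 1 regions of Nr1d2 and Dbp. Of these 11, 9 had a negative log2 fold change, beside 75.2% of all regions that near, while Nr1d1 exon 1 was at 0.15 and Dbp intron 1 at 0.04. In 7 of the 11 the signal was lower in every batch, beside 26.3%, and in 5 the groups did not overlap, beside 4.87%. Outside promoters 23 of the 42 clock regions had a positive and 19 a negative log2 fold change, near the 45.7% negative of all regions outside promoters. Among the 42 clock regions the 11 intergenic ones had a median of 0.22 with 2 negative, where all intergenic regions had a median of 0.09 and 41.5% were negative. These medians without WT replicate 1 were 0.44, with 3 of the 11 negative, and -0.05. The promoter regions as a group were not tested.

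**Figure D2:**
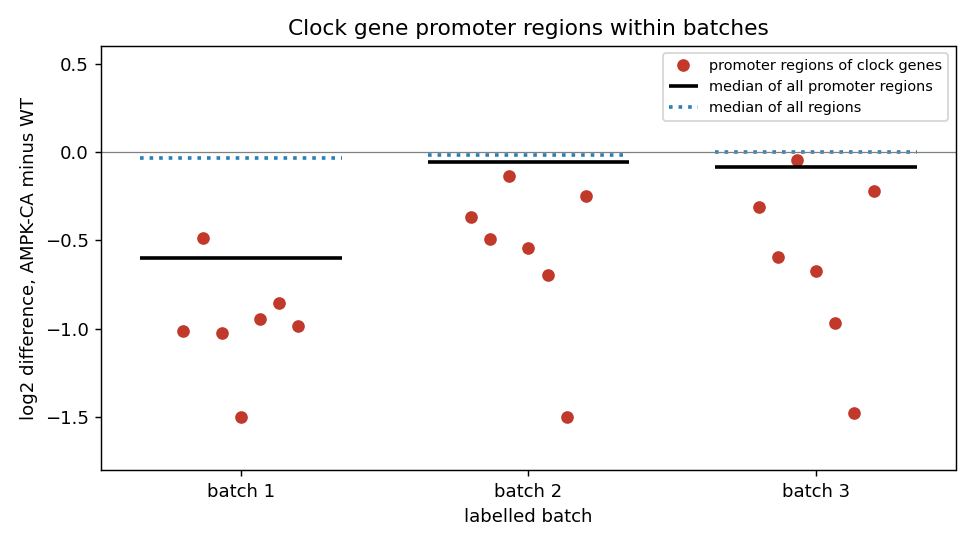
Log2 difference (AMPK-CA minus WT) within each labelled batch for the 7 promoter regions of clock genes (points), with the median of all 5235 promoter regions (solid line) and of all 39704 regions (dotted line). All 21 points lie below 0; the promoter median lies at -0.60 in batch 1 and near 0 in batches 2 and 3.

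Among the activators of the loop, Arntl had its strongest region at its promoter (chr7:113206602-113208247, mm10, 40 bp upstream of the start site). The values there were 48.3, 40.7 and 43.1 in AMPK-CA batches 1, 2 and 3, against 99.4, 53.2 and 53.9 in WT. The groups did not overlap, and WT replicate 1 was far above the other 5 libraries. The log2 fold change was -0.57 ± 0.32 (SE), with an unadjusted limma p of 0.091 without and 0.040 with the block and a blocked adjusted p of 0.671. Its 4 intron regions had log2 fold changes between -0.58 and 0.10. Of these, the region in intron 2 (46475 bp downstream of the start site) had 36.2, 31.0 and 26.4 in AMPK-CA and 42.0, 32.2 and 32.4 in WT, values that overlap.

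Clock, which encodes the partner of BMAL1, had lower AMPK-CA values in both of its promoter regions and higher values in a region farther upstream. The promoter region 347 bp downstream of the start site (chr5:76303802-76304599) had 20.9, 10.7 and 20.8 in AMPK-CA, against 30.0, 15.7 and 32.4 in WT. Each AMPK-CA library was below the WT library of its batch, with log2 differences between -0.59 and -0.49, and the groups overlapped, both batch 2 libraries being low. The second promoter region, 557 bp upstream (chr5:76304693-76305517), had 21.7, 15.5 and 20.8 in AMPK-CA and 46.0, 17.2 and 21.6 in WT, so that batch 1 carried most of the difference. The strongest Clock region lay 1491 bp upstream (chr5:76305567-76306511, in intron 1 of Mir1191), with 41.9, 46.6 and 50.0 in AMPK-CA and 20.0, 42.7 and 37.7 in WT. It was higher in AMPK-CA in every batch, with a log2 fold change of 0.50 ± 0.36 and a blocked adjusted limma p of 0.747. Without WT replicate 1 the log2 fold change was 0.19.

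Per2, a repressor of the loop, carried the most strongly bound clock region, in intron 7 of 22 (chr1:91439309-91440985, 19181 bp downstream of the start site), ranked 63 of all 39704 regions by mean value. It had 196, 184 and 142 normalized reads in AMPK-CA and 226, 182 and 151 in WT. The groups overlapped, and the log2 fold change was -0.09 ± 0.22, with within-batch differences of -0.21, 0.02 and -0.09. The next strongest Per2 region, in intron 1 (chr1:91454851-91457034), ranked 691 and had 74.0, 114 and 86.1 in AMPK-CA and 135, 101 and 91.7 in WT. Intron 6 (chr1:91442448-91443268) had 70.0, 86.4 and 65.3 in AMPK-CA and 50.0, 74.1 and 52.1 in WT, higher in AMPK-CA in every batch by 0.22 to 0.47 on the log2 scale, with an unadjusted limma p of 0.265.

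The Per2 promoter region differed most among the clock promoters (chr1:91459032-91459997, 187 bp upstream of the start site). It had 21.7, 6.79 and 11.1 in AMPK-CA, against 40.7, 22.5 and 34.2 in WT, from 27, 7 and 8 reads and 61, 30 and 19 reads. The groups did not overlap, but only narrowly, since the highest AMPK-CA and the lowest WT value nearly met. The mean was 13.2 ± 7.69 in AMPK-CA and 32.4 ± 9.23 in WT, a ratio of 0.407. The log2 fold change was -1.28 ± 0.45, and the log2 difference was -0.85 within batch 1, -1.50 within batch 2 and -1.48 within batch 3. Here batch 1, in which WT replicate 1 stood apart, held the smallest difference of the 3. The unadjusted limma p was 0.0099 without and 0.000974 with the block, and the adjusted p was 1.00 and 0.315. Without batch 1 its blocked log2 fold change was -1.49. A region in Per2 intron 20 that the table assigns to Hes6 had 57.1, 54.3 and 29.2 in AMPK-CA and 48.0, 35.2 and 37.7 in WT.

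**Figure D3:**
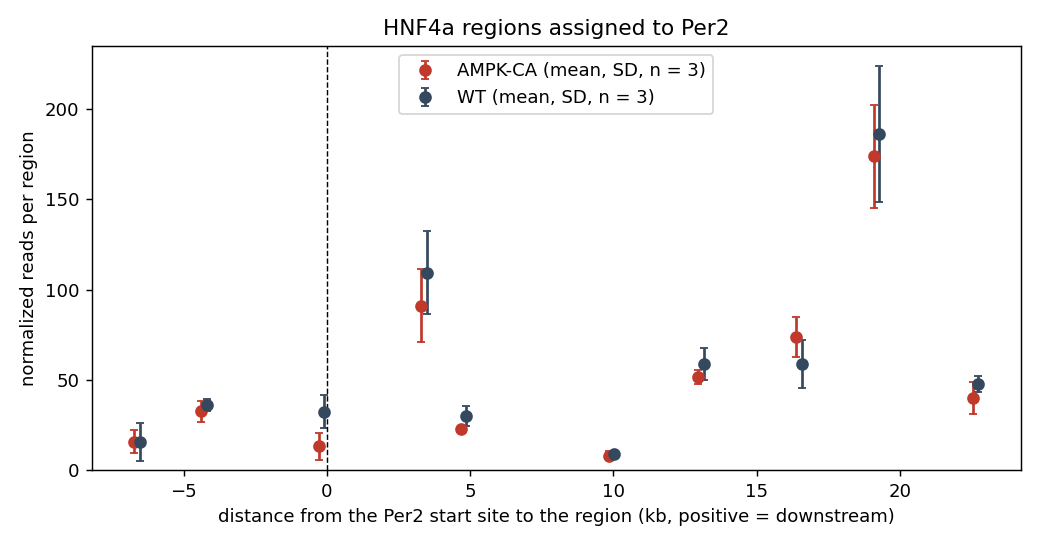
Normalized reads (mean ± SD, n = 3) in AMPK-CA and WT at the 10 HNF4a regions assigned to Per2, by distance from the Per2 start site in kb (points shifted slightly sideways for the 2 groups). The region in intron 7 is the highest, at 174 in AMPK-CA and 186 in WT with overlapping bars, and the promoter region near 0 has 13.2 in AMPK-CA and 32.4 in WT.

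Per3 had a single region, at its promoter (chr4:151044606-151045438, 357 bp upstream of the start site). It had 25.8, 26.2 and 30.6 in AMPK-CA and 52.7, 31.5 and 35.9 in WT, without overlap and with WT replicate 1 far above the rest. The log2 fold change was -0.48 ± 0.36. This region covers the whole Per3 window shown above, with both D-boxes. Per1, a light- and hormone-responsive member of the family, also had a single region, 2043 bp upstream (chr11:69096628-69097197), and none over either of its promoter windows. It had 19.3, 20.4 and 18.1 in AMPK-CA and 30.0, 9.73 and 14.4 in WT, so that the 3 AMPK-CA libraries lay within the WT range.

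Cry1, the partner of PER in repression, had a lower promoter value and a higher intron 1 value in AMPK-CA. The promoter region (chr10:85184884-85185520, 148 bp upstream) had 12.1, 9.70 and 8.33 in AMPK-CA, against 37.4, 15.0 and 14.4 in WT, from 6 to 15 reads and 8 to 56 reads. The groups did not overlap, and the log2 fold change was -0.91 ± 0.48, with a blocked adjusted limma p of 0.659. The region in intron 1 of 12 (chr10:85176690-85177020, 8199 bp downstream) had 12.1, 19.4 and 15.3 in AMPK-CA and 2.67, 12.7 and 7.19 in WT. Each batch had the higher value in AMPK-CA, with overlap between groups, and the log2 fold change was 1.04 ± 0.56, with a blocked adjusted p of 0.658. Without WT replicate 1 it was 0.58. The strongest Cry1 region, 5232 bp upstream, had 35.4, 50.5 and 50.0 in AMPK-CA and 29.4, 65.9 and 52.1 in WT. The AMPK-CA values lay within the WT range, and the log2 fold change was -0.06 ± 0.35. A region in Cry1 intron 2 that the table assigns to Mterf2 had 8.05, 13.6 and 23.6 in AMPK-CA and 2.00, 11.2 and 5.39 in WT.

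Cry2, the paralog of Cry1, had higher AMPK-CA values at most of its regions. Of its 11 regions 8 had a positive and 3 a negative log2 fold change (median 0.37), beside 50.6% positive of all regions. In every batch 4 were higher in AMPK-CA and 1 was lower, beside 13.5% and 14.6% of all regions. Some of the 11 nearly adjoin, such as those 1606 and 1207 bp downstream of the start site, so they are not independent. The strongest region (chr2:92432244-92432682, 1606 bp downstream of the Cry2 start site and annotated to the gene end of D930015M05Rik) had 38.6, 59.2 and 59.7 in AMPK-CA and 12.0, 50.2 and 30.6 in WT. It was higher in AMPK-CA in each batch, though WT replicate 2 exceeded AMPK-CA replicate 1. The log2 fold change was 0.90 ± 0.41, with an unadjusted limma p of 0.040 without and 0.0036 with the block and a blocked adjusted p of 0.436. Without WT replicate 1 the log2 fold change was 0.38. The neighbouring gene-end region 1207 bp downstream had 10.5, 12.6 and 9.72 in AMPK-CA and 8.0, 4.49 and 1.80 in WT, without overlap, from 13, 13 and 7 reads and 12, 6 and 1 reads. It was the only one of the 49 in which the groups did not overlap with AMPK-CA higher, and its blocked unadjusted limma p was 0.080. Cry2 exon 1, at the start site itself (chr2:92433456-92434452), had 28.2, 16.5 and 26.4 in AMPK-CA and 53.4, 18.7 and 14.4 in WT. There the batches disagreed in direction, at -0.88, -0.17 and 0.80 on the log2 scale. A weak region 12675 bp upstream had 19.3, 12.6 and 13.9 in AMPK-CA and 14.0, 9.73 and 1.80 in WT, where the last value is 1 read.

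Among the REV-ERB genes, Nr1d2 had its strongest region over its start site, in intron 1 (chr14:18237790-18239676, 373 bp downstream). It had 63.6, 50.5 and 48.6 in AMPK-CA and 130, 73.4 and 35.9 in WT. The WT libraries spread over a wider range than the AMPK-CA ones and enclosed them, and the log2 fold change was -0.37 ± 0.36. The other 3 Nr1d2 regions, all in intron 1, had log2 fold changes between -0.41 and 0.44. Nr1d1 had 5 regions with log2 fold changes between -0.36 and 0.64. Its strongest, 8019 bp upstream (chr11:98783103-98783688), had 27.4, 22.3 and 37.5 in AMPK-CA and 23.3, 9.73 and 23.4 in WT, higher in AMPK-CA in every batch but with overlap. Exon 1 of Nr1d1, 403 bp downstream of the start site, had 18.5, 11.6 and 23.6 in AMPK-CA and 13.3, 21.7 and 12.6 in WT.

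Dbp, the clock output factor, combined its strongest region, where the groups overlapped, with a weak intron region that had the lowest log2 fold change of the 49. Exon 3 of 4 (chr7:45708087-45708808) had 68.4, 63.1 and 38.9 in AMPK-CA and 67.4, 53.9 and 57.5 in WT, with a log2 fold change of -0.10 ± 0.31. Intron 2, upstream of it (chr7:45707502-45707967, 2488 bp downstream of the start site), had 12.1, 9.70 and 2.78 in AMPK-CA, against 32.0, 20.2 and 18.0 in WT, from 15, 10 and 2 reads and 48, 27 and 10 reads. The groups did not overlap, and the mean was 8.18 ± 4.83 in AMPK-CA and 23.4 ± 7.54 in WT, a ratio of 0.350. The log2 fold change was -1.44 ± 0.51, with differences of -1.29, -0.94 and -2.11 within the batches. Without AMPK-CA replicate 3, which had 2 reads there, it was -0.96. The unadjusted limma p was 0.0099 without and 0.00097 with the block, and the blocked adjusted p was 0.315. The Dbp promoter region (chr7:45704884-45705253, 178 bp upstream) had 8.85, 4.85 and 5.56 in AMPK-CA and 18.7, 8.99 and 12.6 in WT, without overlap, at 4 to 11 reads and 7 to 28 reads.

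**Figure D4:**
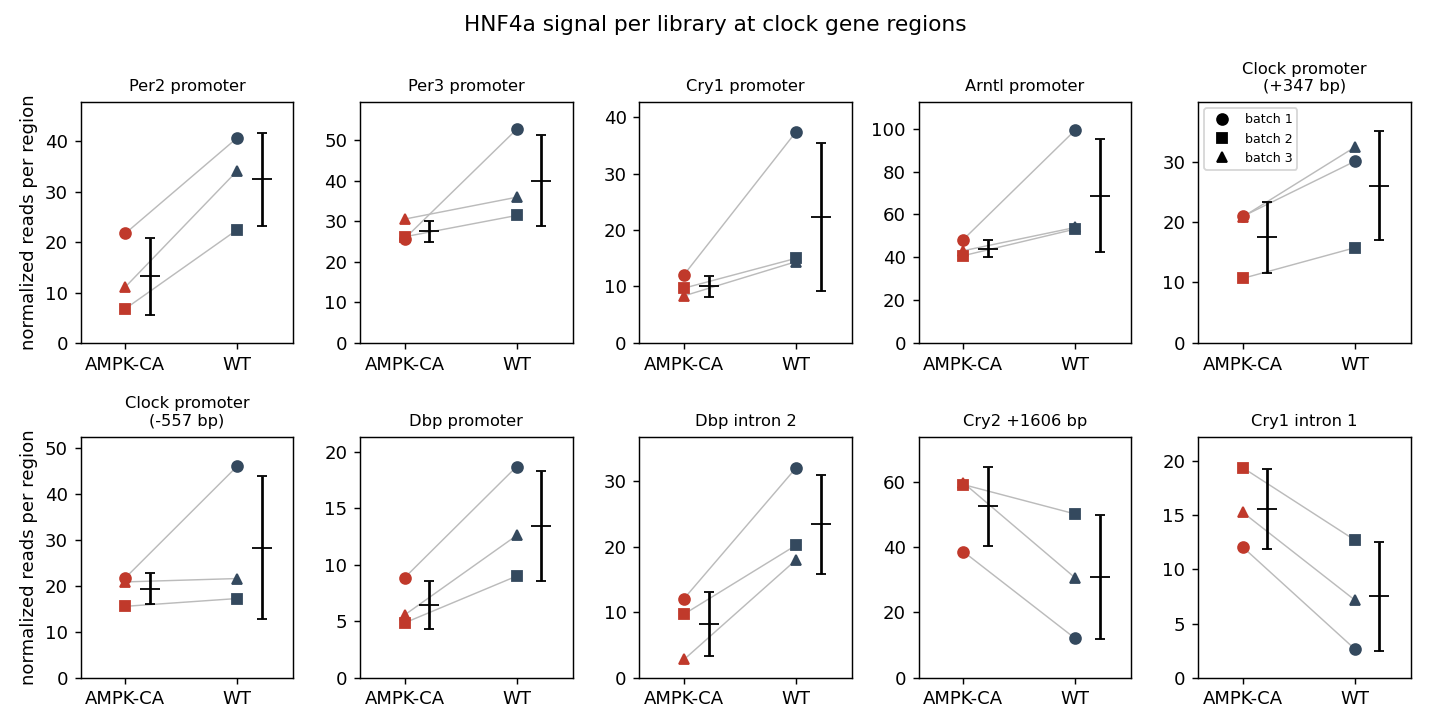
Normalized reads per region in each AMPK-CA and WT library at the 7 clock promoter regions and at 3 further regions, with marker shape giving the batch, grey lines joining libraries of a batch, and bars giving mean ± SD (n = 3). In the promoter panels and at Dbp intron 2 each line ends higher in WT, whereas at Cry2 1606 bp downstream and at Cry1 intron 1 each line ends higher in AMPK-CA.

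Of 25 other clock-associated genes, 21 had HNF4a regions, 103 in all. Limma called 0 of these without or with the block, and at an unadjusted p under 0.05 there were 2 lower and 0 higher without the block and 3 lower and 4 higher with it, beside 0.995% lower and 1.46% higher of all regions without the block and 3.16% and 4.11% with it. The 103 regions had a median log2 fold change of 0.02, with 47 negative and 56 positive. The strongest region of each of the 21 genes had a median of -0.31, with 15 of 21 negative, where the strongest regions of all genes had a median of -0.05 and 55.3% were negative. The median of these 21 without WT replicate 1 was -0.17, with 13 negative. The 2 most strongly bound belonged to the PAR bZIP relatives of Dbp. Hlf intron 2 (chr11:90354616-90355828) had 163, 180 and 146 in AMPK-CA and 191, 154 and 140 in WT. A Tef region annotated as promoter (chr15:81810144-81812095, 8447 bp downstream of the assigned start site) had 131, 102 and 101 in AMPK-CA and 215, 127 and 151 in WT, with a log2 fold change of -0.53 ± 0.25 and an adjusted limma p of 0.537 with the block. At Tef the groups overlapped, since AMPK-CA replicate 1 lay above WT replicate 2. Among 13613 genes outside these lists, the 3 whose strongest region was most like Per2 intron 7 were Pcdh1, Haao and Gm6484, with root-mean-square differences of 0.0617, 0.0795 and 0.0978 in log2 value over the 6 libraries.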

How the data were processed

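HNF4a ChIP-seq was measured in livers of 3 AMPK-CA and 3 WT mice, which the labels name by separate animal codes. The submitters' processing notes list HOMER, SICER, MACS2, deepTools, Picard, SAMtools, BWA, FastQC and Trim Galore, with no role or version for any, and GRCm38 and mm10 as builds. How the authors selected regions is a step not given in the sources used here. Libraries were made with either of 2 kits, per the labels' protocols, which name no kit per library. The authors deposited a normalized read signal per region and library. All values (100%) were whole multiples, within 1e-09, of 1 read's value, so whole reads were recovered. Reads outside the regions were not analysed here, and a change common to all regions cannot be measured. The deposited log2 mean ratios and p-values of the authors, per the file headers, are used in the closing section only. The regions were 201 to 4329 bp long.

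The test was limma 3.58.1 (R 4.3.3) on log2(value + 1.80) of all regions, with robust moderation and a trend of variance on mean, and Benjamini-Hochberg adjustment. The pseudocount was 0.1 of the median value above 0. The labelled batch pairs the libraries; same-batch deviations from the genotype means correlated at r = 0.53, 0.49 and 0.05 in batches 1, 2 and 3. Fits with batch as a block, edgeR 4.0.16 and DESeq2 1.42.0 on recovered reads were alternatives. The plan covered normalized values and counts, and the files held a normalized signal. Fits were run on simulated data with large changes put only into regions at or above the median value. The simulation held no batch effect, so it does not bear on weak regions, small changes or batches. No 2 libraries were duplicates, the lowest chi-square per degree of freedom of any pair being 1.55. The members and lists were chosen with earlier results of these data known. Regions named were each gene's strongest and nearest to the start site, and those with an unadjusted p under 0.05 and 1 direction in all batches; the other regions (Arntl intron 2, Clock 557 bp upstream, Per2 introns 1 and 6, Cry2 1207 bp downstream, and those assigned to Hes6 and Mterf2) were named after their values were seen. Of the other clock-associated genes the 2 most strongly bound were named. P-values measure the spread between these libraries only.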

Additional observations from a re-analysis of the deposited data

How the results depend on the processing

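Over 23 alternative settings, 0 of the 49 clock regions were called by limma, edgeR or DESeq2, with 1 to 8 at an unadjusted p under 0.05. The filter on values at or above the median left out the weaker of the 49. The count was 1 without AMPK-CA replicate 2 and without AMPK-CA replicate 3, where limma gave such a p to 366 and 397 of all regions. It was 8 by limma with the block and without the mean-variance trend, whose count of such p over all regions is not shown here. Over all regions the count of calls was 0 in each fit of all 6 libraries without the block, and 23 by limma with the replicate block, 24 by edgeR with it, 1 by DESeq2 with it, 0 by limma with it but without the mean-variance trend, and 28 with the block and centring by annotation class, the last 2 chosen after seeing the data. Without batches 1, 2 and 3 in turn, with the block, it was 12, 2 and 7, and leaving out single libraries without the block gave 0 to 16, the 16 without WT replicate 1. An unadjusted p under 0.05 without the block was given to 975 regions by limma, 830 by edgeR and 599 by DESeq2. The block changed no call among the clock regions.

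All 7 clock promoter regions had a negative log2 fold change under every setting that could be computed for all 7, and the filter on values at or above the median could not be. The number without overlap was 5 on the authors' scale, beside 5.2% of all promoter regions, and 2 at equal library totals, beside 4.39%. It was 5 to 6 when single libraries were left out, where a smaller group separates more easily. Without WT replicate 1 it was 5, beside 7.66% of all promoter regions. The median log2 fold change of the 10 strongest regions ran from -0.14 to 0.094 on leaving out single libraries, at 0.094 without AMPK-CA replicate 3 and at 0.059 without WT replicate 1. Of the 19 regions that the naming rule took, 7 changed sign in some setting, and none of these was called. On leaving out single libraries Cry1 5232 bp upstream ran from -0.38 to 0.18, Cry2 exon 1 from -0.43 to 0.45, Dbp exon 3 from -0.25 to 0.14, Nr1d1 exon 1 from -0.061 to 0.40, Nr1d2 at its start site from -0.84 to 0.063, Per1 from -0.11 to 0.62 and Per2 intron 7 from -0.23 to 0.055. Centred by annotation class, without or with the block, Cry2 exon 1 was at 0.11 and Dbp exon 3 at 0.10. With the block, Cry2 exon 1 was at 0.32 without batch 1, Cry1 upstream at 0.10 and Per1 at -0.15 without batch 2, and Dbp exon 3 at 0.12 and Nr1d1 exon 1 at -0.19 without batch 3. The cause was not tested. Weak regions such as the Dbp promoter rest on 4 to 28 reads per library.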

Other observations

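In the authors' deposited table, a p under 0.05 stood beside 8 of the 49 clock regions, and 7 of these had a negative log2 mean ratio. The authors' deposited table gives such a p with a negative ratio to 8.71% and with a positive ratio to 3.74% of all regions, and to 15.5% and 0.630% of all promoter regions. The 7 were the promoters of Arntl, Cry1, Dbp and Per2, the Clock promoter region 347 bp downstream, Dbp intron 2 and a Cry2 intron 1 region, and the 1 with a positive log2 mean ratio, 0.35, was Per2 intron 6. The authors' deposited table gives the Per2 promoter a log2 mean ratio of -1.37 with p = 0.0011, and the Clock promoter a log2 mean ratio of -0.57 with p = 3.1e-05. Limma gave unadjusted p-values of 0.0099 and 0.245 to these regions without the block, and 0.000974 and 0.171 with it.

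Sums over all regions assigned to a gene were as follows at the cryptochrome genes. Cry2 totalled 256 ± 12.1 normalized reads in AMPK-CA and 211 ± 41.0 in WT over 11 regions (SD, n = 3). In batches 1, 2 and 3 its sums were 249, 248 and 269 in AMPK-CA and 245, 222 and 165 in WT. Batch 1 was nearly equal, and the WT sum in batch 3 came from 92 reads. Cry1 totalled 96.2 ± 9.42 in AMPK-CA and 102 ± 23.8 in WT over 4 regions. The ratio of the mean sums, AMPK-CA over WT, was 1.21 at Cry2, 1.07 at Per1 and 1.05 at Nr1d1. It was 0.968 at Clock, 0.940 at Cry1, 0.895 at Per2, 0.825 at Nr1d2, 0.775 at Arntl, 0.748 at Dbp and 0.687 at Per3. These sums were not tested.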
